A study of Mus musculus with 24 samples.

Results

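The genes described here are 38 genes of DNA replication and mitosis: the proliferation marker Mki67, 4 cyclin-dependent kinase genes, 8 cyclin genes, the 6 subunits of the replicative helicase, 5 genes of replication and nucleotide supply, and 14 mitosis genes. They were chosen by symbol, and all 38 were found among the 23240 genes of the deposited table. A gene was tested if its normalized read count, the reads of a gene divided by the size factor of the library, reached 10 in at least 4 of the 24 libraries. Of the 38 genes, 35 passed, as did 15225 genes of the whole table. The 3 that did not pass were Cdk6, which reached 10 in 2 libraries, and Bub1 and Cdc25c, which reached it in 0. Just inside the limit stood Aurkb, which reached 10 in exactly 4 libraries, numbered 5, 13, 14 and 18. Cdk1 and Ccnb1 passed with 8 and 10 libraries.

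RNA was taken from the hippocampus of male wild-type C57BL/6 mice aged 4 to 8 months and sequenced by a poly(A)-based method. The 5 groups were nonstressed mice on the control diet (n = 4 libraries), stressed mice on the control diet given sham treatment (n = 5) or electroconvulsive therapy (ECT, n = 6), and stressed mice on the PLX diet given sham treatment (n = 5) or ECT (n = 4). The PLX diet held PLX5562, named in the labels as an inhibitor of the CSF1 receptor, on which microglia depend, and was fed for 3 weeks before stress began. Stress was chronic unpredictable stress (CUS) over 5 weeks, and the nonstressed group was labelled as untreated. ECT is a shock through ear clips under light isoflurane anaesthesia, given at 3 sessions a week for 2.5 weeks. No group was nonstressed on the PLX diet, so the diet could be compared only in stressed mice. Nothing in the labels states that the libraries stem from different mice, and p-values therefore cover only library-to-library spread. Markers of dentate granule cells and of hippocampal pyramidal cells were above 0 in all 24 libraries.

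A dividing cell passes from G1 through DNA synthesis (S phase) and G2 into mitosis. D-type cyclins with Cdk4 or Cdk6 and E-type cyclins with Cdk2 carry it through G1, the Mcm helicase opens the DNA at replication origins, and cyclin B with Cdk1 drives it into mitosis, which the anaphase-promoting complex ends. In the adult hippocampus most cells are postmitotic neurons, and the dividing cells are mainly neural progenitors of the dentate gyrus, oligodendrocyte precursors and microglia. Several of these genes, Ccnd1, Ccnd2, Cdk4 and Pcna among them, are also expressed in cells that do not divide. All values come from whole tissue, in which fewer cells of a type and less RNA per cell cannot be told apart.

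Levels per kilobase of exon (GENCODE vM21, GRCm38) differed widely among the 38 genes. Pcna, the sliding clamp of DNA polymerases, was highest with a mean over the 24 libraries of 317 normalized read counts per kilobase. Cdk4 followed at 212, Ccnd1 at 162 and Ccnd2 at 125, and the lowest helicase subunit, Mcm2, stood at 14.1. Mki67 was at 5.67, Top2a at 2.91, Ccnb1 at 2.15 and Cdk1 at 1.59, and the 3 untested genes lay at 0.999 for Bub1, 0.509 for Cdc25c and 0.443 for Cdk6. Plk1, a mitotic kinase, was the highest of the mitosis genes at 17.3 per kilobase, above Mcm2 and above Mcm3 at 16.3. The plot of levels per kilobase shows this order.

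**Figure D1:**
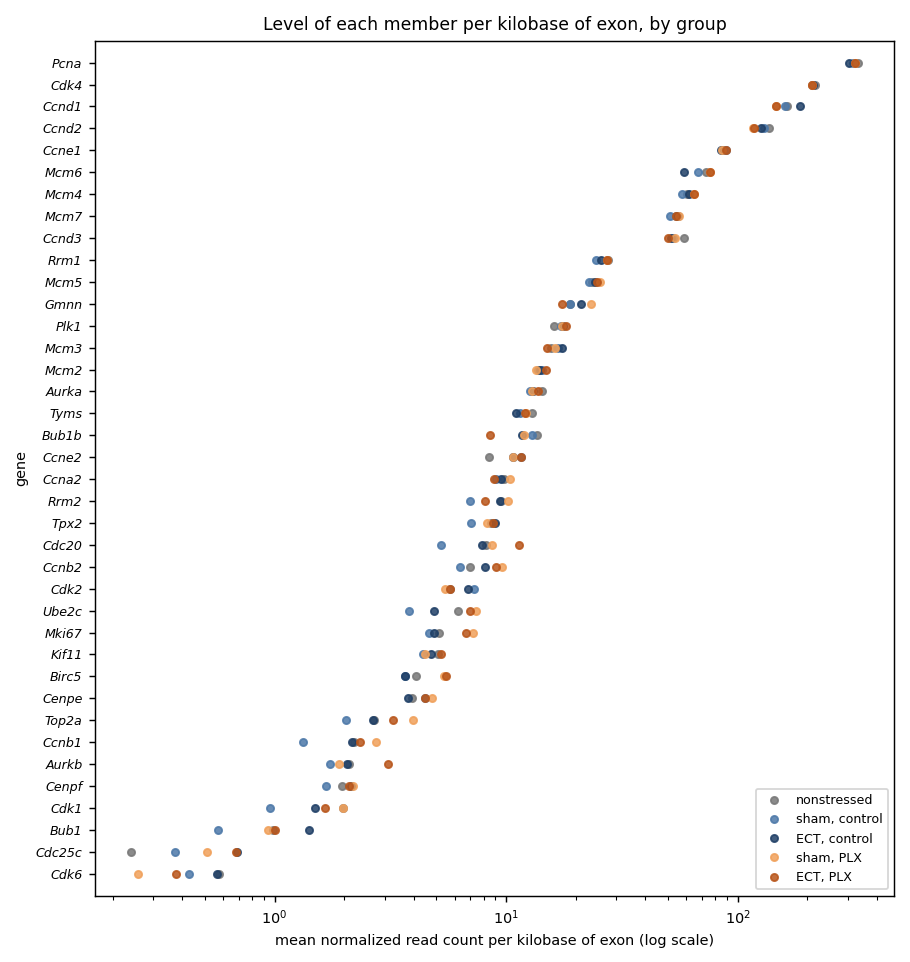
Mean normalized read count per kilobase of exon (log axis) of the 38 genes, 1 point per group. Pcna and Cdk4 are the highest in every group, and Cdk1, Bub1, Cdc25c and Cdk6 are the lowest genes, with the 5 group means of most genes close together.

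Promoters are shown for the called genes Mki67 and Mcm6 and for Ube2c and Cdc20, which had the largest averaged fold changes on the PLX diet. In cultured cells, late cell cycle genes are commonly controlled through a cell cycle homology region (CHR) with CCAAT boxes, and replication genes through E2F sites. The windows below are the 200 bases before the RefSeq transcription start (GRCm38.p6), written 5′ to 3′ on the gene's strand. Capitals mark matches on either strand to the CHR (TTTGAA or TTCGAA, the second being its own reverse complement), to E2F (TTTCCCGC, TTTGGCGC, TTTCGCGC or TTTGCCGC) and to the CCAAT box (CCAAT). Mki67 is read from chr7:135716380-135716579 (minus strand), Mcm6 from chr1:128359706-128359905 (minus strand), Cdc20 from chr4:118437344-118437543 (minus strand) and Ube2c from chr2:164769729-164769928 (plus strand).
Mki67: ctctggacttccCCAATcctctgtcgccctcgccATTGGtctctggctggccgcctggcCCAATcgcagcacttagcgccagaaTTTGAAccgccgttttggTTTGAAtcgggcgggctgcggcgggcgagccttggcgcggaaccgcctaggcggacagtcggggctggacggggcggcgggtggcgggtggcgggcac
Mcm6: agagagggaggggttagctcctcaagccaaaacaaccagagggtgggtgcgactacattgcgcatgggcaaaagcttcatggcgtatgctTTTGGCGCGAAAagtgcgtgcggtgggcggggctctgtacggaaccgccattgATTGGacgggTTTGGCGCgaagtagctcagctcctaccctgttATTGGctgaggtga
Cdc20: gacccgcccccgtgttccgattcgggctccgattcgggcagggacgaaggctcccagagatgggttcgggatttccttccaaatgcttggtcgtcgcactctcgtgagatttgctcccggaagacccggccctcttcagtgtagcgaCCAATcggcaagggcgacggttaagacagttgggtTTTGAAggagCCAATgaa
Ube2c: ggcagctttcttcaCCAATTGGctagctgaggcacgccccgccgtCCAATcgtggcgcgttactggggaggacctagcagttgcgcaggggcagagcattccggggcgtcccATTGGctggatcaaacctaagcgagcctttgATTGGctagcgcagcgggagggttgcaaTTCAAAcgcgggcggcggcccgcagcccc
In Mki67 the CHR letters start 116 and 98 bases before the transcription start, and CCAAT or its complement ATTGG starts at 188, 166 and 141. In Cdc20 a CHR starts at 18 between CCAAT boxes at 53 and 8. Ube2c holds a CHR on the reverse strand at 29 and CCAAT letters on both strands, of which CCAAT and ATTGG overlap in the run CCAATTGG. Mcm6 holds no CHR letters in its window and E2F letters at 110, 106 and 47, of which those at 110 and 106 overlap on opposite strands, and ATTGG at 57 and 14.

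The RefSeq promoter table used here held 29 of the 38 genes, and motifs were counted in the 250 bases before the start, taking a gene as matched if any of its entries matched. CHR letters occurred in 10 of the 29 genes (34.5%) and in 19.6% of all 27025 genes with an entry. The 10 were Mki67, Top2a, Cdk1, Ccnb2, Cdc20, Ube2c, Bub1b, Kif11, Mcm2 and Mcm7. E2F letters occurred in 5 (17.2%), namely Mcm5, Mcm6, Mcm7, Cdk1 and Cdk2, against 2.16% of all genes. CCAAT letters occurred in 24 (82.8%) against 37.5%. These matches describe the letters of the windows only, and no promoter is given for Ccna2, Ccnd1, Ccnd2, Ccne2, Mcm4, Gmnn, Aurkb, Cdc25c or Tpx2.

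Libraries ranged from 14.97 M to 20.12 M gene-assigned reads, and 1 read was worth 0.83 to 1.09 normalized read counts, so a value of 10 rests on few reads. Library 18, of the sham group on the PLX diet, was the highest of the 24 libraries in 7 of the 35 tested genes. Its sum over 20 genes that act from S phase to mitosis was 743 normalized read counts, against 375 to 605 in the other 23 libraries. Library 4, of the ECT group on the control diet, had the lowest Mki67 and Mcm6 of all libraries, and library 17 held an unusually large share of ribosomal Rn45s reads (2.9%, against 0.598% to 1.005% in the others). All 18 microglial markers examined fell on the PLX diet, with a median log2 fold change of -2.52 and with none at 0 in any library, and their summed level was 9035 to 13001 in control-diet libraries and 1649.5 to 3228 in PLX-diet libraries. Choroid plexus markers varied within every group, their sum running from 1619 to 84951 over the 24 libraries.

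The map of all 38 genes by library shows these differences among libraries beside those among groups. Library 18 was the highest of all in Mki67, Top2a, Ccnb1, Ccnb2, Rrm2, Cenpf and Ube2c, whereas Cdk4 and Pcna differ little among libraries.

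**Figure D2:**
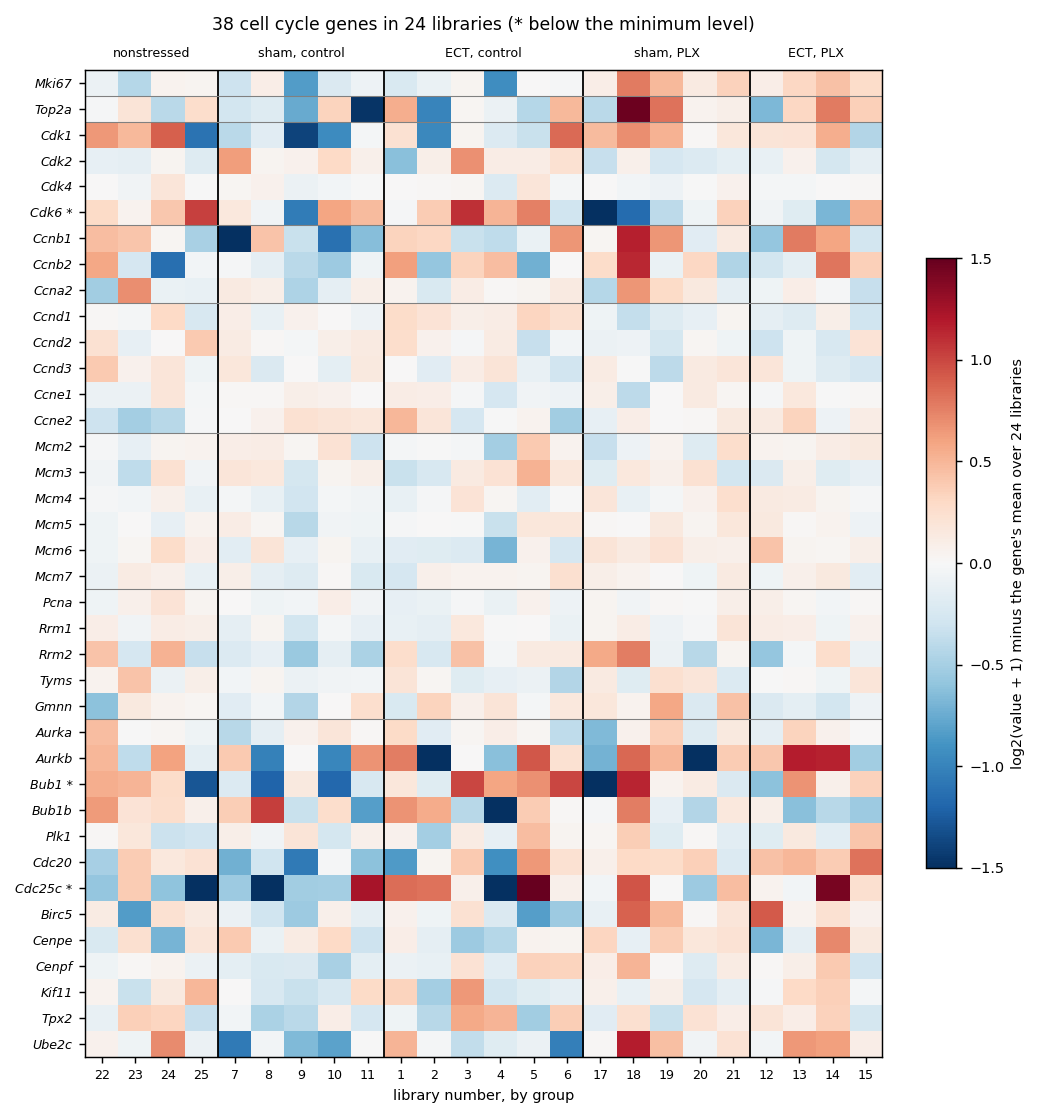
Log2(value + 1) minus the mean of the gene over 24 libraries, for 38 genes (rows, by role) and libraries (columns, by group). Red is above and blue below the gene's mean, shades stop at 1.5, and an asterisk marks the 3 genes below the minimum level, in which few reads make large swings.

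The PLX diet was the comparison in which any of these genes passed the test. Averaged over sham and ECT mice, Mki67 and Mcm6 were higher and Ccnd1 was lower on the PLX diet. Mki67, whose protein coats the chromosomes of dividing cells, rose 1.48-fold. Mcm6, a subunit of the replicative helicase, rose 1.21-fold, and Ccnd1, the G1 cyclin D1, fell to 0.847 of its control-diet level. These 3 were the genes of the 35 with an adjusted p below 0.05 (limma, Benjamini-Hochberg over 15225 genes), 2 higher and 1 lower, in a comparison that called 3.05% of all tested genes, 0.493% as higher and 2.56% as lower. In limma-voom with libraries of 1 title letter treated as correlated, Mki67 alone was called. That fit also used other normalization and weights, so the loss of calls cannot be credited to the title letters alone. No title letter is shared between groups.

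Ccnd1 (chr7:144929931-144939925, minus strand) encodes the cyclin that activates Cdk4 and Cdk6 in G1. The mean ± SD was 755 ± 45.8 (n = 5) on the control diet and 687 ± 69.8 (n = 5) on the PLX diet in sham mice, and 875 ± 55.3 (n = 6) and 692 ± 79.3 (n = 4) after ECT. Its normalized read counts were 808, 701, 789, 758 and 716 in the sham control-diet libraries and 720.4, 588, 660.4, 693 and 776 in the sham PLX-diet libraries. After ECT they ran from 806 over a median of 883 to 947 on the control diet, and were 689, 661, 802 and 616 on the PLX diet. All 4 PLX-diet libraries after ECT lay below all 6 control-diet libraries after ECT, while the sham groups overlapped. The 4 nonstressed libraries gave 764, 738, 927 and 641 and overlapped every other group. The log2 fold change on the PLX diet was -0.34 (SE 0.09, adjusted p = 0.0295) in ECT mice and -0.14 (SE 0.08, adjusted p = 0.652) in sham mice, and -0.24 (SE 0.06, adjusted p = 0.0219) averaged over both (limma). In the limma-voom fit with title letters neither call held, at an adjusted p of 0.0784 in ECT mice and 0.0567 in the average. In ECT mice Ccnd1 was the 1 gene of the 35 called, as lower, where 2.3% of all tested genes were called, 0.44% as higher and 1.86% as lower. That call was lost (adjusted p of 0.0520 to 0.178) without library 1, 2, 5 or 6 of the control diet or library 12, 13 or 15 of the PLX diet. The averaged call was lost without library 7, 13 or 15, at an adjusted p of 0.0509, 0.0515 and 0.0773. Ccnd1 overlaps the opposite-strand gene LTO1, and no source used here gives the strand setting, so reads of the overlap may belong to either gene. Such opposite-strand overlaps involve 17 of the 38 genes, same-strand overlaps 5, and pseudogenes carrying the gene's name exist for 5.

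Of the other G1 genes none was called on the PLX diet. Ccnd2, a D-type cyclin needed for adult neurogenesis in mice, measured 1273, 1187, 1146, 1247 and 1285 in sham control-diet libraries and 1106, 1115, 974, 1191 and 1119 in sham PLX-diet libraries. Library 20, at 1191, was the one of these PLX-diet libraries within the range of the sham control-diet group. After ECT the values ran from 919 over 1192 to 1407 on the control diet and were 946, 1125, 994 and 1346 on the PLX diet, all within the control-diet range. The averaged log2 fold change was -0.13 (SE 0.07, adjusted p = 0.489). Ccnd3, the third D-type cyclin, stood at -0.01 (95% interval -0.18 to 0.16), and Cdk4, the kinase partner of all of them, at -0.004 (-0.08 to 0.08). Ccne1 and Ccne2, the E-type cyclins that act with Cdk2 at the start of S phase, had averaged differences of 0.00 and 0.02. Cdk2 itself had -0.31 (SE 0.12, adjusted p = 0.261) and lies over the opposite-strand gene Pmel. Cdk6 ranged from 0 to 12.6 over the 24 libraries and was not tested.

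Mcm6 (chr1:128331590-128359664, minus strand), whose promoter letters are shown above, measured 287, 365, 293, 329 and 295 in the sham control-diet libraries and 366, 351, 372, 339 and 337 in the sham PLX-diet libraries. After ECT the control-diet values ran from 196 over 279 to 334, and the PLX-diet values were 429, 329.7, 326 and 339. Of the 11 control-diet libraries of stressed mice, 8 lay below all 9 PLX-diet libraries, and library 4 was the lowest and library 12 the highest. The nonstressed libraries, at 305, 327, 387 and 342, overlapped both diets. The log2 fold change was 0.38 (SE 0.11, adjusted p = 0.0577) in ECT mice and 0.18 (SE 0.10, adjusted p = 0.641) in sham mice. Averaged, it was 0.28 (SE 0.07, adjusted p = 0.0358, limma), and 0.23 (adjusted p = 0.110) without library 12. In the limma-voom fit with title letters the averaged call did not hold (adjusted p = 0.0771). In ECT mice the difference was 0.29 without library 4. The averaged call was also lost without library 6, 7, 9, 11, 15, 17, 18 or 19, at an adjusted p of 0.0522 to 0.0762, and without libraries 4 and 17 together (adjusted p = 0.0579), with log2 fold changes of 0.23 to 0.29.

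The 5 other subunits of the helicase ring were not called. Mcm4 had an averaged difference of 0.13 (SE 0.05, adjusted p = 0.320), Mcm5 and Mcm7 had 0.10 and 0.05, Mcm3 had -0.11, and Mcm2 had 0.01 (95% interval -0.18 to 0.20). Mcm2 measured 104, 105, 98.9, 113 and 78.2 in sham control-diet libraries and 76.0, 91.9, 101, 84.5 and 116 in sham PLX-diet libraries, and the groups overlapped throughout. The 6 subunits had a median difference of 0.07, with 5 positive.

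Genes of replication and nucleotide supply had small averaged differences on the PLX diet, and none was called. Pcna measured 762, 726, 737, 813 and 729.9 in sham control-diet and 781, 733, 768, 755 and 808 in sham PLX-diet libraries. Its difference was 0.06 (SE 0.03, adjusted p = 0.559, 95% interval -0.02 to 0.13). Rrm1, the large subunit of ribonucleotide reductase, had 0.12 (SE 0.05, adjusted p = 0.265). Rrm2, its S-phase subunit, measured 20.5, 21.8, 15.8, 21.6 and 16.8 in sham control-diet libraries and 35.6, 41.3, 22.3, 17.5 and 24.5 in sham PLX-diet libraries, where libraries 17 and 18 were high, and differed by 0.47 in sham mice, or 0.32 without library 18. The averaged difference of Rrm2 was 0.12 (SE 0.16, adjusted p = 0.826). Tyms, thymidylate synthase, had 0.10 and Gmnn, the inhibitor of repeated origin licensing, 0.01.

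Mki67 (chr7:135689784-135716361, minus strand) gave 44.2, 59.2, 30.5, 47.5 and 52.5 normalized read counts in sham control-diet libraries and 59.1, 95.7, 77.7, 60.8 and 70.3 in sham PLX-diet libraries. After ECT its values ran from 28.3 over 53.0 to 56.9 on the control diet and were 59.1, 68.9, 75.2 and 67.2 on the PLX diet. Of the 9 PLX-diet libraries, 7 lay above all 11 control-diet libraries of stressed mice, and 10 of the 11 control-diet libraries lay below all PLX-diet libraries. All 9 also lay above the 4 nonstressed libraries, which gave 51.8, 40.6, 57.2 and 56.6. Group means ± SD were 46.8 ± 10.7 (n = 5) and 72.7 ± 14.9 (n = 5) in sham mice and 49.0 ± 10.7 (n = 6) and 67.6 ± 6.65 (n = 4) after ECT. The log2 fold change was 0.64 (SE 0.19, adjusted p = 0.0984) in sham mice and 0.49 (SE 0.19, adjusted p = 0.259) in ECT mice, neither of which passed in limma. Averaged over both it was 0.56 (SE 0.13, adjusted p = 0.0128, 95% interval 0.29 to 0.83). In ECT mice it was 0.34 without library 4. The averaged call held with each stressed library left out in turn (adjusted p of 0.00765 to 0.0368), and the log2 fold change was 0.51 without library 18 and 0.49 without library 4 or library 9. With the choroid plexus and thalamus marker means as covariates the averaged call was lost, at 0.52 (adjusted p = 0.0857, limma). The gene overlaps Gm45240. In sham mice alone Mki67 passed with DESeq2 (adjusted p = 0.0339) and, in limma, without libraries 4 and 17 (adjusted p = 0.0177). That removal was chosen after seeing the data, and library 17, at 59.1, had the lowest Mki67 of the sham PLX-diet libraries. With a single library left out the sham difference did not pass (lowest adjusted p = 0.0569, limma).

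**Figure D3:**
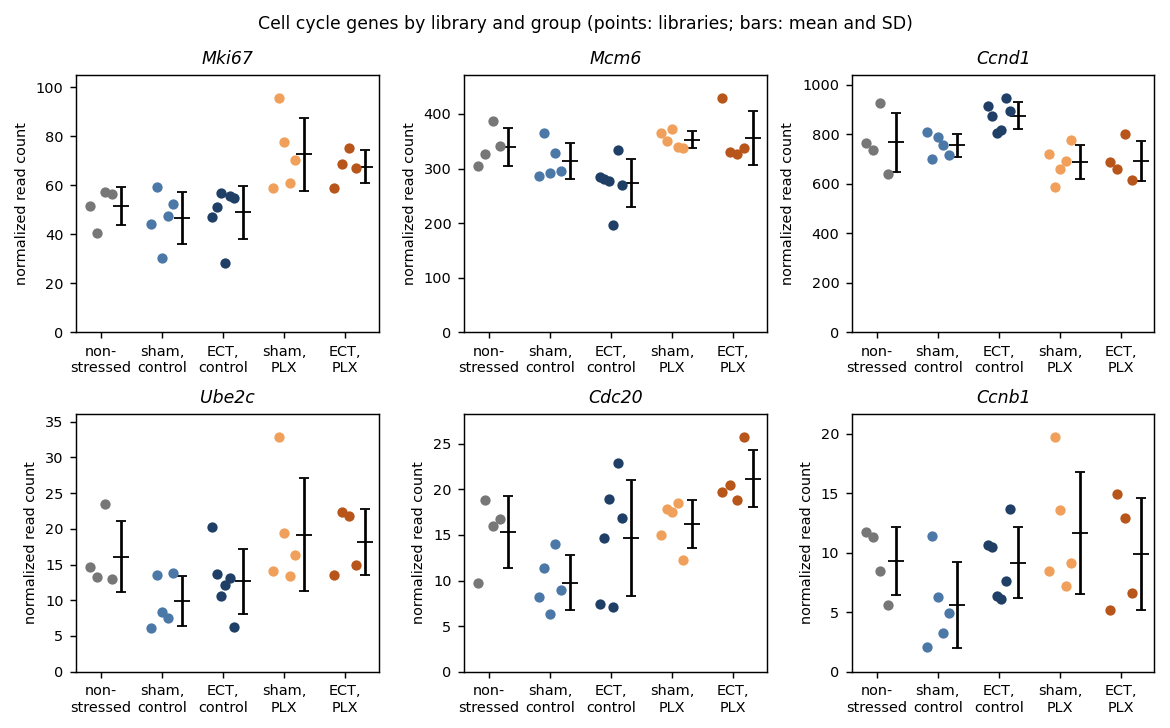
Normalized read count of 6 genes by group, 1 point per library, with the mean and SD. Mki67 and Mcm6 lie higher in the 9 PLX-diet libraries than in most control-diet libraries of stressed mice, all 4 ECT PLX-diet values of Ccnd1 lie below the 6 ECT control-diet values, and Ube2c, Cdc20 and Ccnb1 overlap between diets.

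None of the 12 mitosis genes tested was called on the PLX diet. Averaged over sham and ECT mice, 11 of the 12 had a positive log2 fold change, with a median of 0.15. Aurkb, among the 12, passed the minimum level through libraries 13, 14 and 18 of the PLX diet and library 5 of the control diet. It thus entered the diet counts mainly through PLX-diet libraries. Among the 35 tested genes of all roles, 28 were positive with a median of 0.10. Of all 15225 genes, 52.4% were positive and the median was near 0. The 3 mitotic cyclins were all positive, with a median of 0.32, and 0 were called.

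Ube2c, the ubiquitin-conjugating enzyme of the anaphase-promoting complex, measured 6.16, 13.5, 8.42, 7.55 and 13.9 in sham control-diet libraries and 14.1, 32.8, 19.4, 13.4 and 16.3 in sham PLX-diet libraries. All but library 20 of these PLX-diet libraries lay above the control-diet group. Its averaged log2 fold change was 0.70 (SE 0.21, adjusted p = 0.0700) and in sham mice 0.88 (SE 0.29, adjusted p = 0.188, limma), or 0.67 without library 18. The gene overlaps Tnnc2 on the opposite strand.

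Cdc20, the activator of the same complex, measured 8.22, 11.4, 6.31, 14.0 and 8.91 in sham control-diet libraries and 15.0, 17.8, 17.5, 18.6 and 12.2 in sham PLX-diet libraries. After ECT the values ran from 7.09 over 15.7 to 22.9 on the control diet and were 19.7, 20.5, 18.8 and 25.7 on the PLX diet. The diets overlapped in both treatments. The averaged log2 fold change was 0.66 (SE 0.20, adjusted p = 0.0792, limma), and Cdc20 overlaps Elovl1 on the opposite strand.

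Cdk1, the mitotic kinase, measured 5.13, 6.23, 2.10, 3.24 and 6.93 in sham control-diet libraries and 10.3, 12.2, 10.7, 7.21 and 8.15 in sham PLX-diet libraries. The sham groups did not overlap, yet at 2 to 7 reads per control-diet and 7 to 13 reads per PLX-diet library the log2 fold change of 0.96 (SE 0.37) had an adjusted p of 0.318. Ccnb1, cyclin B1, measured 2.05, 11.4, 6.31, 3.24 and 4.95 against 8.44, 19.7, 13.6, 7.21 and 9.17, with overlap and 1.02 on the log2 scale (SE 0.36, adjusted p = 0.256), or 0.82 without library 18. Top2a, the topoisomerase that untangles chromosomes, measured 19.5, 20.8, 13.7, 30.2 and 7.92 against 17.8, 67.5, 42.7, 24.7 and 25.5 with a difference of 0.88 on that scale (SE 0.36, adjusted p = 0.387), or 0.61 without library 18. In ECT mice the differences of Cdk1, Ccnb1 and Top2a were 0.19, 0.05 and 0.27, and none of these values passed in limma.

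Cenpf, a kinetochore protein, had a log2 difference of 0.36 (SE 0.15, adjusted p = 0.424) in sham mice, 0.26 without library 18, and -0.04 in ECT mice. Aurkb, the kinase of the chromosomal passenger complex, was near the detection limit, at 2.81, 10.3, 7.77, 0 and 7.13 in sham PLX-diet libraries, and its averaged difference of 0.23 had an SE of 0.41. Birc5, a partner of Aurkb in that complex, stood outside the naming rule and was picked after its values were seen. Its averaged difference was 0.52 (SE 0.18, adjusted p = 0.172). The remaining mitosis genes lay between -0.16 (Bub1b, a checkpoint kinase) and 0.14 (Cenpe, a kinetochore motor).

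With the sham and ECT comparisons taken singly, 0 and 1 of the 35 genes were called. In sham mice 1.86% of all tested genes were called, and at an unadjusted p below 0.05 the genes counted 10 higher and 1 lower, a share of 31.4%, where 9.48% of all genes passed, 3.94% higher and 5.54% lower. There edgeR called 0 and DESeq2 called 1. Without library 18 the count at an unadjusted p below 0.05 in sham mice was 7 of 34, without library 9 it was 6 of 35, and with the title letter 7 of 35. It was 12 of 35 without library 8, without library 20 and with edgeR. The share of all genes given above is that of the main limma fit, not of these settings. In ECT mice 5 genes passed the unadjusted limit, 4 higher and 1 lower, beside 11.4% of all genes, and 3 passed it without library 4 (1 higher) or library 12 (2 higher). The count was 6 (4 higher) without library 1. Averaged, 11 passed it, 9 higher and 2 lower, beside 12.5% of all genes, 5.62% higher and 6.9% lower. The averaged comparison uses the libraries of both others and is no independent count. Of the untested genes, fitted without the minimum level, Cdk6 had -0.66 (adjusted p = 0.431, limma) in the average.

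Markers of other cell types were counted beside these values. In sham mice, choroid plexus markers had positive differences in 10 of 10 genes (median 1.5, summed levels of 1630.0 to 52871 on the control diet and 2280.4 to 68033 on the PLX diet), with 0 called, and meningeal markers in 6 of 6 (median 0.67). After ECT the mean choroid plexus sum was 15151 on the control diet and 15077 on the PLX diet, and the mean meningeal sum 1447 and 1763. Mature oligodendrocyte markers were positive in 0 of 6 in sham mice (median -0.20) and 2 of 6 in ECT mice (median -0.04). Oligodendrocyte precursor markers, of a dividing cell type, were negative in 8 of 8 in the average over treatments (median -0.12, 0 called), with sums of 5097 to 7283 on the control diet and 4863 to 6458 on the PLX diet. Progenitor and immature neuron markers were positive in 5 of 10 (median -0.005), and dentate granule markers in 6 of 6 (median 0.22, 1 called). With the choroid plexus and thalamus marker means as covariates, Mki67 had 0.52 (adjusted p = 0.0857) and Mcm6 0.27 (adjusted p = 0.127) in the average, and Ccnd1 alone was called. The part of microglial loss in these differences was not tested, since the diet and the loss occur in the same libraries.

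**Figure D4:**
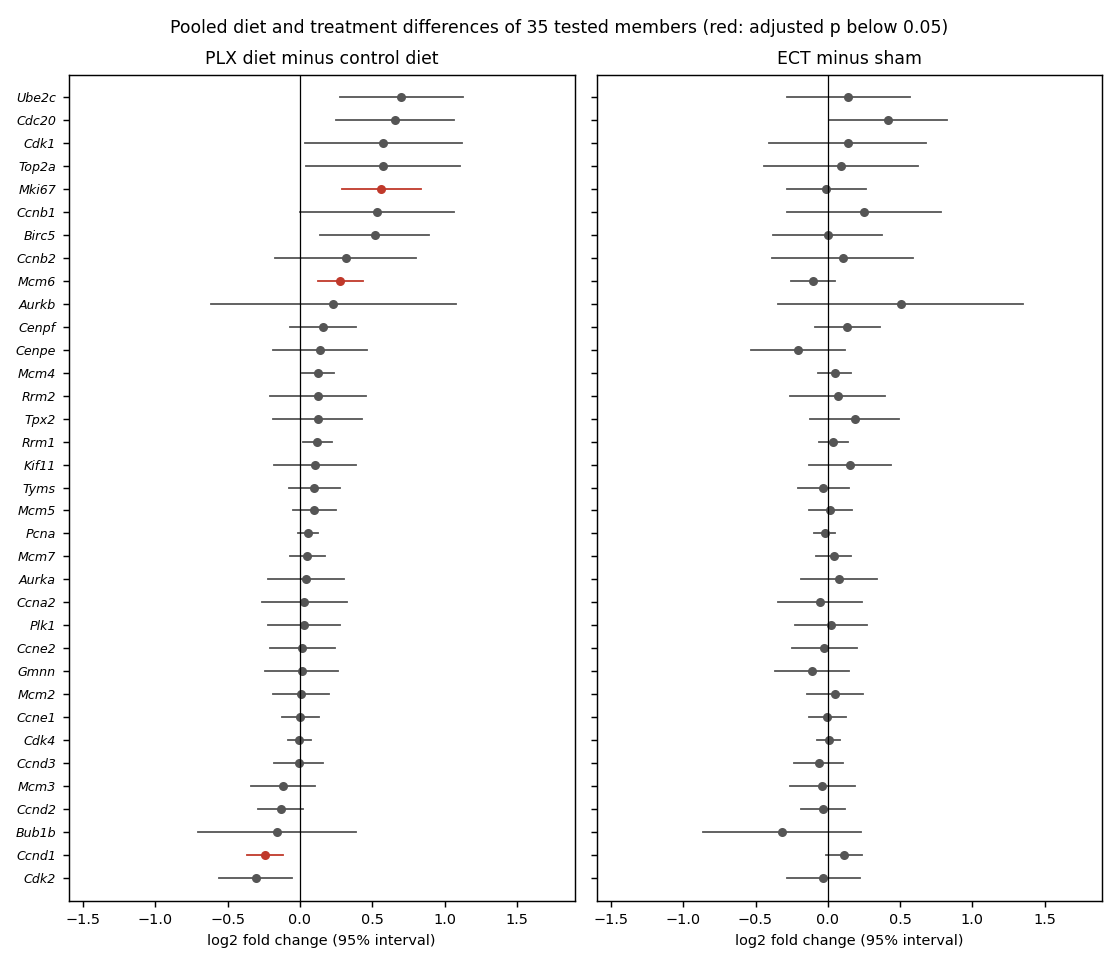
Log2 fold change with its 95% interval (limma) of the 35 tested genes, for the PLX diet against the control diet (left) and ECT against sham (right), each averaged over the other factor. On the left, Mki67 at 0.56, Mcm6 at 0.28 and Ccnd1 at -0.24 are in red as called, and on the right no gene is.

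Stress, compared in sham mice on the control diet against nonstressed mice, gave no called gene among the 35, as among all genes (0.0%). The nonstressed mice were labelled as untreated, so stress and sham treatment cannot be told apart in this comparison. At an unadjusted p below 0.05 there were 5 of the 35 in limma, beside 6.5% of all genes in that fit. With edgeR there were 5 and with DESeq2 3, with 0 called by either. The count was 1 without library 7, 9 or 24, 3 without library 10, 11, 22 or 23, and 2 with the title letter or with the compared groups alone. It was 6 without library 8 or with the choroid plexus and thalamus marker covariates, and 5 without library 25. The 5 were 1 higher and 4 lower, against 3.3% and 3.19% of all genes. Differences were positive in 8 of 35 genes, beside 49.2% of all genes, and the median was -0.11. Among mitosis genes 2 of 12 were positive (median -0.21).

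Ccne2, cyclin E2, had the smallest p. It measured 29.3, 25.5, 27.2 and 36.2 in nonstressed libraries and 37.0, 38.4, 43.1, 42.1 and 41.6 in stressed sham libraries. The groups did not overlap, and the log2 fold change was 0.45 (SE 0.16, adjusted p = 0.759, limma). Ccne1, cyclin E1, had 0.05.

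The 4 genes with lower values were Rrm1, Ube2c, Cdk1 and Cdc20. Rrm1 gave 309.6, 280.5, 312 and 307 in nonstressed and 265, 298, 239, 285 and 266 in sham libraries, with overlap at library 8 and 10, and a log2 fold change of -0.16 (SE 0.07). Ube2c gave 14.6, 13.2, 23.5 and 13.0 in nonstressed libraries, of which library 24 was high, and had -0.67 (SE 0.31). Cdk1 gave 11.7, 10.4, 14.1 and 2.78, with library 25 low, and had -0.82 (SE 0.39), and Cdc20 gave 9.77, 18.9, 16.0 and 16.7 and had -0.61 (SE 0.29). All 4 had an adjusted p of 0.759. Cenpf gave 29.3, 31.2, 31.9 and 28.8 in nonstressed and 27.7, 26.0, 26.3, 21.6 and 27.7 in sham libraries without overlap, and its difference of -0.22 (SE 0.16) did not pass either limit. Mki67 had -0.16 (95% interval -0.56 to 0.25) and Top2a -0.48 (-1.27 to 0.31). Choroid plexus markers were negative in 10 of 10 genes in this comparison (median -1.61, 0 called) and thalamus markers in 8 of 8 (median -0.41), as were ependymal markers in 5 of 5 (median -0.48), and their part in these values was not tested. The 5 sham libraries also serve as the reference of the sham diet comparison and of ECT on the control diet, so differences of opposite sign in Ube2c, Cdk1, Cdc20 and Ccnb1 rest on shared libraries.

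ECT, compared with sham on each diet and averaged over both, changed none of these genes at the adjusted threshold. On the control diet 0 of 35 were called in limma, beside 0.00657% of all genes. At an unadjusted p below 0.05 there were 3 of 35, beside 6.88% of all genes in that fit. The unadjusted counts were 2 with edgeR and 1 with DESeq2. On the PLX diet the limma counts were 0 called and 1 unadjusted, beside 0.0% and 2.55% of all genes (1 unadjusted with edgeR and 0 with DESeq2). Averaged, the limma counts were 0 and 1, beside 0.0% and 2.49% of all genes (1 unadjusted with each of edgeR and DESeq2). The edgeR and DESeq2 fits called 0 in each. With the title letter the unadjusted count was 1 on the control diet, 0 on the PLX diet and 0 in the average. These small counts also moved with single libraries. On the control diet the unadjusted count was 1 without library 6 and 5 without library 1. On the PLX diet it was 0 without library 12, 13, 14, 15, 17, 19 or 21. In the average it was 0 without library 2, 3, 5, 6, 7, 9, 11, 12, 13 or 17, and 2 without library 14.

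On the control diet the 3 were Ccnd1, Cenpf and Ccnb1, all with positive differences. Ccnd1 ran from 806 to 947 after ECT against 701 to 808 in sham libraries, and differed by 0.21 (SE 0.08, adjusted p = 0.594). Libraries 7 and 3 made the overlap. Its difference on the PLX diet was 0.01 (SE 0.09). Cenpf ran from 27.3 over 32.3 to 39.3 after ECT, against a highest sham value of 27.7, with 0.33 (SE 0.15, adjusted p = 0.657). Ccnb1 ran from 6.07 over 9.06 to 13.7 with 0.74 (SE 0.35, adjusted p = 0.702), and on the PLX diet had -0.24 (SE 0.38). Bub1, a checkpoint kinase below the minimum level, had 1.08 (adjusted p = 0.67, limma) when fitted without it. In this comparison progenitor and immature neuron markers were positive in 8 of 10 genes (median 0.22, 1 called, Sox11), ependymal markers in 5 of 5 (median 0.50), striatum markers in 6 of 6 (median 0.39), thalamus markers in 8 of 8 (median 0.32), choroid plexus markers in 10 of 10 (median 0.29) and microglial markers in 0 of 18 (median -0.28). Of these lists only that of progenitors and immature neurons held a called gene. Their part in these values was not tested.

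Mki67 had differences of 0.06 (SE 0.18) on the control diet, -0.09 (SE 0.20) on the PLX diet and -0.01 (95% interval -0.28 to 0.26) in the average. A doubling is 1 on this scale. Pcna had -0.02 (-0.09 to 0.05) and Cdk4 0.01 (-0.07 to 0.09) in the average. The intervals of low genes were wide, with Top2a at 0.09 (-0.44 to 0.62) and Cdk1 at 0.14 (-0.41 to 0.68). Cdc20 had the smallest p of the average, with 0.42 (SE 0.20, adjusted p = 0.9998, limma). Ccnd1 and Mcm6, next by p, had 0.11 and -0.10.

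On the PLX diet Gmnn, geminin, had the smallest p. It measured 32.8, 30.0, 43.7, 24.7 and 39.7 in sham and 24.9, 26.1, 23.8 and 27.4 in ECT libraries. Library 20 of the sham group lay among the ECT libraries, and the log2 fold change was -0.38 (SE 0.18, adjusted p = 0.999, limma). Aurkb and Cdc20 were next by p. Aurkb, near the detection limit, had the largest difference at 0.87, with 7.26, 13.0, 12.9 and 3.32 in ECT libraries. Over the other settings it ran from 0.29 to 1.23, and Cdc20 from 0.24 to 0.42, with 0 calls of either.

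The test of whether ECT differed between the diets called 0 of the 35 genes and 0.0% of all genes. At an unadjusted p below 0.05 there were 2 of 35 in limma, beside 6.85% of all genes in that fit. With edgeR there were 2 and with DESeq2 1, and neither tool called any. The limma count was 0 without library 9 or 12, 4 without library 20, and 1 without library 2, 3, 4, 6, 7, 11, 15, 17, 19 or 21. With the title letter it was 0. The 2 were Gmnn, at -0.55 (SE 0.25, adjusted p = 0.720), and Rrm2, at -0.70 (SE 0.32, adjusted p = 0.720). Rrm2 had a difference after ECT of 0.42 (SE 0.22) on the control diet and -0.28 (SE 0.24) on the PLX diet. Ccnb1, next by p, had an interaction of -0.97 and did not pass the unadjusted limit. Ccnd1, called on the PLX diet in ECT mice and not in sham mice, had an interaction of -0.20 (SE 0.12, adjusted p = 0.797), so its diet difference was not shown to differ between treatments. The same holds for Mki67, at -0.15 (SE 0.26), and Mcm6, at 0.21 (SE 0.15).

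Other genes of the pathway were counted from 4 further lists, and none was called in any of the 8 comparisons. Cell cycle inhibitors and pocket proteins, which hold cells in G1, had 9 of 10 genes tested, and on the PLX diet in the average 6 were positive with a median of 0.02. For E2F and DREAM transcription factors the numbers were 16 of 17 tested, 8 positive and a median of -0.004. For other replication genes they were 38 of 39, 22 positive and 0.02. For other mitosis genes they were 37 of 42, 28 positive and a median of 0.10, with 6 higher and 0 lower at an unadjusted p below 0.05. In sham mice alone the other mitosis genes counted 7 higher and 0 lower at that limit, and in ECT mice 0 higher and 1 lower. Of all genes, 5.62% were higher and 6.9% lower at that limit in the average, and 3.94% and 5.54% in sham mice. In ECT mice 11.4% of all genes passed it. Other replication genes counted 2 higher and 0 lower in the average, 2 and 1 in sham mice, and 4 and 1 in ECT mice. E2F and DREAM transcription factors counted 1 and 1, 0 and 2, and 0 and 1 in the same order. Cell cycle inhibitors and pocket proteins counted 0 in each. Among all genes the median difference was near 0 in each comparison, and 52.4% were positive on the PLX diet in the average.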

How the data were processed

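Hippocampal poly(A) RNA was measured in 24 libraries, grouped by the stress, diet and treatment labels. The deposited signal values are gene-level read counts that the authors divided by a size factor per library, as the steps between values show. DESeq2 1.6.3, HTSeq 0.6.1p1, TopHat2 2.0.10 and cutadapt are named in the submitters' processing notes, as are mm10 and hg19, whose roles are not stated there. Whole reads were recovered for 100.0% of values, within 0.001 reads.

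Genes with a value of 10 in at least 4 libraries were kept (15225 of 23240). Log2(value + 1) was fitted with limma 3.58.1 (trend and robust options, R 4.3.3) over all 5 groups, in 8 comparisons, with Benjamini-Hochberg adjustment over all genes tested and a threshold of 0.05. Fold changes on this scale understate those of low genes. Averaged comparisons weight sham and ECT, or the diets, equally. Alternatives were edgeR 4.0.16 and DESeq2 1.42.0 on recovered reads, pseudocounts of 0.5 and 8, no filter, the compared groups alone, choroid plexus and thalamus marker covariates, limma-voom with the letter of the library title as a random effect (consensus correlation 0.189), each library left out, and, chosen after seeing the data, libraries 4 and 17 left out. Shares of all genes are those of the main limma fit throughout, so counts under the alternatives have no share of their own setting beside them. The model scripts were tested on simulated data.

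Members and gene lists were chosen with earlier results of these data known. Genes named with full values were those called, the 3 with the smallest p in each comparison, and 10 fixed genes (Mki67, Top2a, Cdk1, Ccnd1, Ccnd2, Ccnd3, Cdk4, Pcna, Mcm2, Rrm2). Coordinates are GRCm38 (GENCODE vM21), and promoters are RefSeq GRCm38.p6. The annotation used for counting is not named in the labels.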

Additional observations from a re-analysis of the deposited data

Results flagged for a closer look

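Of 100 sets of values (19 named genes and 1 sum, in 5 groups), 5 held a library whose gap to its nearest neighbour took up an unusually large share of the group's range (Dixon's criterion), and chance gives about 1 in 20. Mki67 was 28.3 in library 4 of the ECT control-diet group, where the next lowest was 47.0. Mcm6 was 429 in library 12 of the ECT PLX-diet group, where the next highest was 339. Rrm1 was 280.5 in library 23 of the nonstressed group, against 307 for the next. Cenpf was 21.6 in library 10 of the sham control-diet group, against 26.0 for the next. Ube2c was 23.5 in library 24 of the nonstressed group, against 14.6 for the next. The causes were not tested.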

How the results depend on the processing

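Of 1033 values under alternative settings, 964 kept their direction and side of the threshold, 25 lost a call, 5 gained one and 39 changed sign, all of the last in differences near 0. Most of the 1033 values belong to differences not called in the main fit, which had no call to lose. No paired analysis was possible because library numbers are unique to each library. In sham mice the PLX diet called 1 gene with DESeq2 (Mki67), 1 with tissue covariates (Ccnb1, 1.53, adjusted p = 0.0491, limma) and 1 without libraries 4 and 17 (Mki67). In ECT mice it called 2 with DESeq2 (Ccnd1 and Mcm6), 0 with the title letter, and 0 to 1 with a library left out. Without library 5 that call was Mcm6 (adjusted p = 0.0162) in place of Ccnd1. The averaged diet comparison called 1 with tissue covariates (Ccnd1), 1 with the title letter (Mki67) and 1 to 5 with a library left out, being 5 without library 1 (adding Cdk2 and Ube2c), 4 without library 5 (adding Cdc20), and 1 without library 7 or 15. In the average, Mki67 was called in 28 of 29 alternative settings, Ccnd1 in 25 of 29 and Mcm6 in 17 of 29. In ECT mice Ccnd1 was called in 11 of 19. With the title letter Ccnd1 had an adjusted p of 0.0567 in the average and 0.0784 in ECT mice, and Mcm6 0.0771 in the average (limma). Differences that changed sign were small. For averaged ECT, Mki67 was 0.0101 with covariates, 0.0273 without libraries 4 and 17, and -0.0828 to 0.0614 with a library left out. Top2a was -0.0074 without libraries 4 and 17 and -0.0338 to 0.2364, Ccnd2 was 0.001 with covariates and -0.0837 to 0.0022, Ccnd3 was 0.0128 with covariates, Cdk4 ran from -0.0108 to 0.0275 and Rrm2 from -0.0067 to 0.1465. For the averaged diet, Ccnd3 ran from -0.053 to 0.0401 and Cdk4 from -0.0242 to 0.0141, and Mcm2 was -0.003 with edgeR, -0.0616 with covariates, -0.0048 without libraries 4 and 17 and -0.0407 to 0.0495 with a library left out. The causes were not tested. At a few reads per library, as in Cdk1 and Ccnb1, values carry a large counting error.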
